A study of Mus musculus with 12 samples.

Results

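The 27 genes described here encode the machinery of inhibitory synapses that use GABA or glycine in the mouse brain. They comprise 9 subunits of the GABAA receptor, 4 genes of the GABAB receptor and its auxiliary subunits, 3 subunits of the glycine receptor, 2 genes of the synaptic scaffold, 2 of receptor trafficking, 5 that make, load, take up or break down GABA, and 2 chloride cotransporters. They were taken by gene symbol from the 20989 loci of the expression files, and all 27 were found. The rule that picked them used symbols and no measured values, but the members were chosen with earlier results of these data known. Of these, 26 passed the filter on low values (a mean of at least 1 FPKM over 12 libraries), and Glra3 did not.

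Acute coronal slices holding auditory cortex were cut from 6 C57bl6/J mice aged 4 weeks and split at the midline. One hemisphere stayed for 1 h in control artificial cerebrospinal fluid (control, n = 6). The other spent 1 h in the same fluid with a stimulating cocktail (cocktail, n = 6) made of 50 µM (-)-bicuculline methiodide, which blocks GABAA receptors, 100 µM DL-norepinephrine, 50 µM carbamoylcholine, an agonist of acetylcholine receptors, 100 µM dopamine, 40 µM ascorbic acid and 100 µM serotonin. According to the methods of the study, both hemispheres then rested in plain fluid before the auditory cortex was dissected, so every library is a bulk sample of all cell types of that piece of tissue. The 2 libraries of a mouse came from the same brain, and no library came from tissue that had not been sliced.

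GABA is made from glutamate in inhibitory neurons, packed into vesicles and released onto GABAA receptors, which are chloride channels of several subunits, and onto GABAB receptors, which signal through G proteins. Gephyrin anchors GABAA and glycine receptors under the synapse, and transporters and a transaminase clear the transmitter. The direction of the chloride current depends on the balance between the importer NKCC1 and the exporter KCC2. Bicuculline acts on receptors built from the subunits described here, and the comparison asks whether transcripts of the inhibitory synapse changed after the cocktail.

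The libraries held 10601067 to 19768881 reads, recovered from the confidence intervals in the files, with a median of 14924263 in control and 15164166 in cocktail. The cocktail hemispheres carried a strong activity response. Fos, a transcription factor induced by neuronal firing, read 230.1 to 401 FPKM in control and 568 to 754 FPKM in cocktail, and Arc, a synaptic activity gene, 243 to 309 and 434 to 543 FPKM. For neither gene did the groups overlap (log2 fold change 0.99 ± 0.079 SE and adjusted p = 2.92e-05 for Fos, 0.82 ± 0.063 SE and adjusted p = 2.18e-05 for Arc, limma). One library stood apart. In the control of mouse 1 the deviation from the other 5 controls had an SD of 0.255 over all loci on the log2(FPKM + 1) scale, against 0.147 to 0.166 for the others. Marker lists of the cell types in the tissue were detected in every library, with summed levels of 475 to 557 FPKM for 14 inhibitory neuron markers, 2412 to 2889 FPKM for 10 excitatory neuron markers and 649 to 824 FPKM for 8 astrocyte markers. The 5 choroid plexus markers summed to 1.11 to 2.27 FPKM.

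None of the inhibitory synapse genes passed the test for a change with the cocktail. Of the 26 tested, 0 had an adjusted p under 0.05 in limma, where 1.5% of all 12032 loci tested did (180 loci, 147 higher and 33 lower). At an unadjusted p under 0.05 there were 2, Kctd12 and Gabrg3, which is 7.69% of the members beside 8.05% of all loci. In 2 genes, Gad2 and Abat, the cocktail library was the higher one in 6 of 6 mice, where 6.3% of all loci had 1 direction in every mouse. In 0 of the 26 were the groups free of overlap, where 0.914% of all loci were. Voom on the recovered reads also called 0 members. In the same voom fit 5 of the 26 had an unadjusted p under 0.05, a larger share than the 10.9% of all loci. These were Gabbr2, Gabrg3, Gad2, Kctd12 and Slc12a5.

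All 95% intervals lay between -0.22 and 0.46 on the log2(FPKM + 1) scale, and 21 of the 26 lay within 0.25 of zero in either direction. This scale understates the change of low genes such as Gabrg3, whose estimate in voom was 0.36 on the log2 scale. Kctd12, which is not a low gene, had an estimate of 0.33 in voom and 0.29 with a pseudocount of 0.1. The estimate was above zero for 20 genes and below it for 6, Gabrd, Slc12a5, Nlgn2, Gabbr2, Gphn and Gabbr1, or 76.9% above zero beside 54.44% of all loci tested. Without mouse 1 the split was 14 to 12, as Gabra3, Gabra4, Gabrb1, Gabrb2, Gabrg1 and Glrb turned negative, and under quantile normalization it was 16 to 10. The median estimate was 0.035 beside 0.0076 over all loci tested, and the median size without regard to sign was 0.064 beside 0.048. Without mouse 1 the median estimate was 0.022 beside -0.013 over all loci, and under quantile normalization 0.017 beside -0.0068. The share of all loci above zero was not taken in these other settings. These are bulk values, so a shift in the number of cells of a type and a shift in the RNA per cell cannot be told apart.

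**Figure D1:**
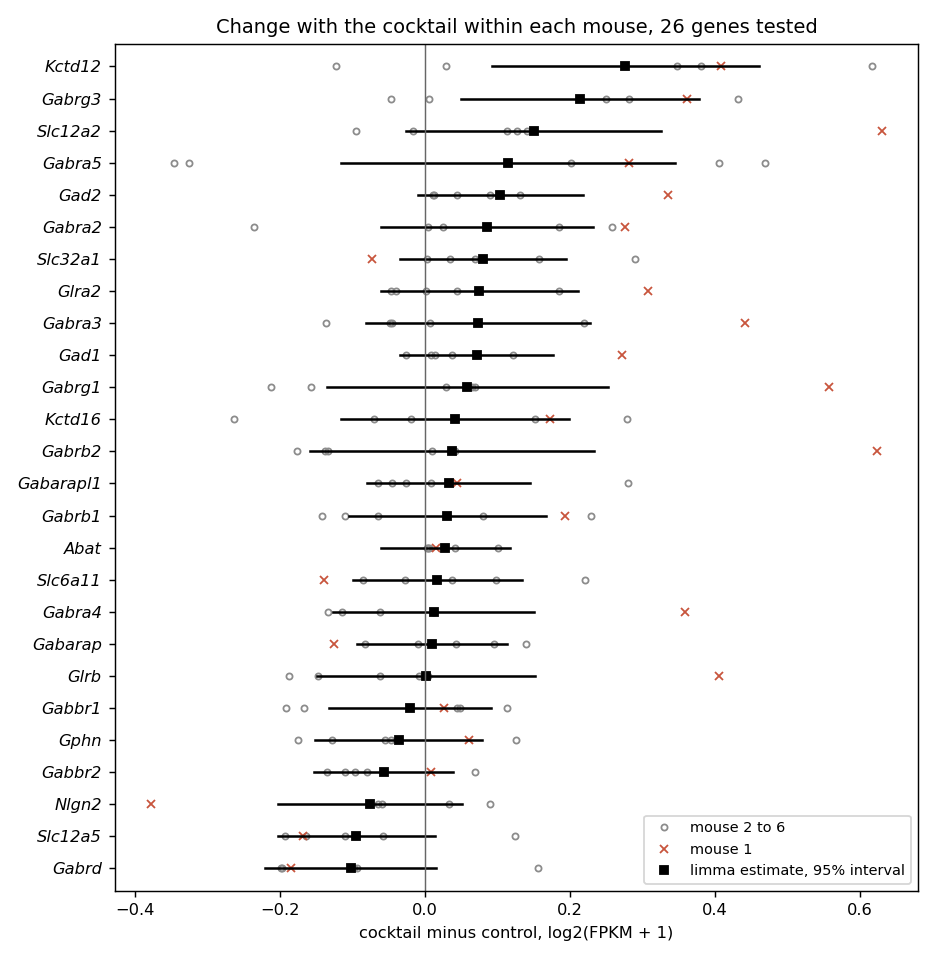
Cocktail minus control on the log2(FPKM + 1) scale for the 26 genes tested, with the limma estimate and its 95% interval (square and line), mice 2 to 6 (circles) and mouse 1 (crosses). The intervals of Kctd12 and Gabrg3 lie above zero before adjustment, and mouse 1 is the highest point for Gabrb2, Slc12a2, Gabrg1, Glrb and Gabra4.

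The levels themselves spanned a wide range. Mean control levels ran from 252 FPKM for Gabarapl1 to 0.714 FPKM for Glra3, a 354-fold span, with 3 genes above 100 FPKM, 19 between 10 and 100 and 5 below 10. FPKM is scaled by transcript length and by sequencing depth, so these levels can be compared between genes, though only roughly. In the control of mouse 1 the deviation from the other controls went with the GC content of the transcript, as given below. The median of the members was 30.8 FPKM beside 10.2 FPKM for all loci tested, and 8 members were in the top decile of all loci, above 54.7 FPKM. The order was loose in its middle. Of the 26 neighbouring pairs, 11 kept their order in 6 of 6 control libraries, and for 20 pairs the ranges of the libraries overlapped. The clear steps, with ranges that did not meet, lay between Gabarapl1 and Gabbr1, Slc12a5 and Gad1, Glrb and Abat, Abat and Gabrb2, Gabrb1 and Kctd16, and Gabrg1 and Gabrg3.

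**Figure D2:**
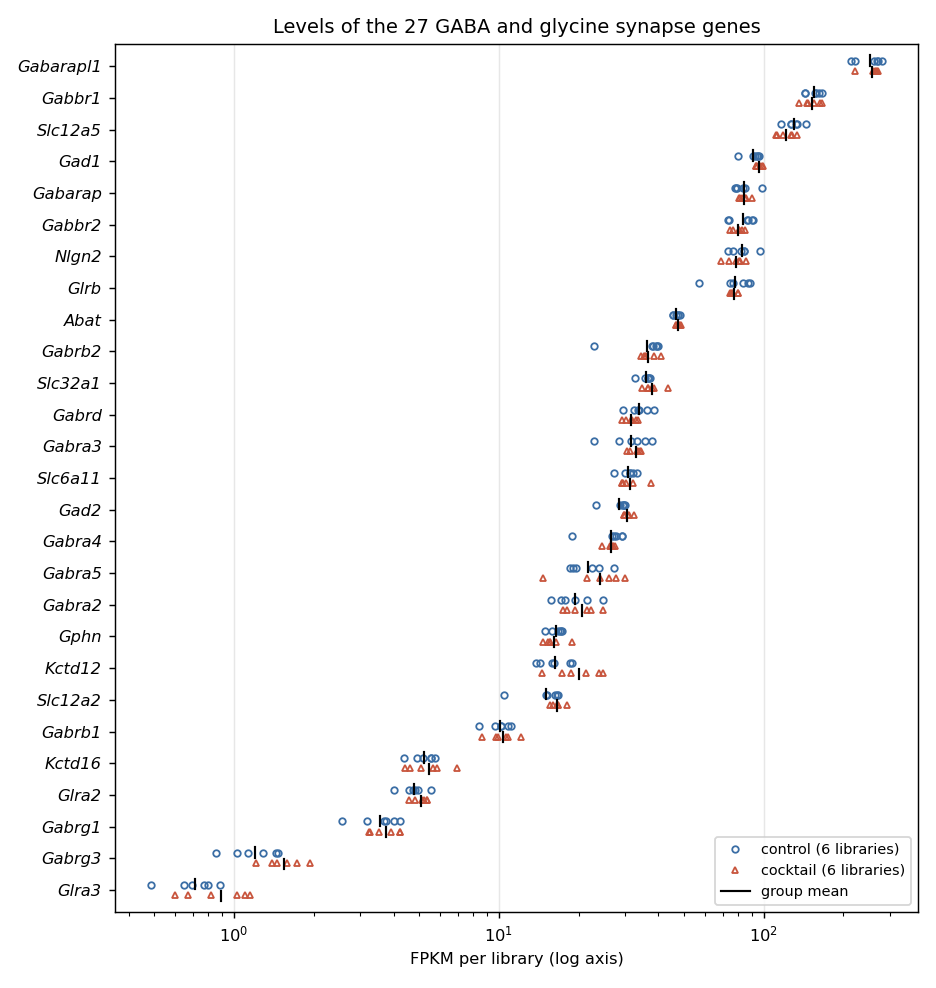
FPKM of the 27 genes in each of 6 control (circles) and 6 cocktail libraries (triangles) on a log axis, ordered by the control mean, with the group means as bars. The groups overlap for every gene, and the single low control point of Gabrb2, Gabra3, Gad2, Gabra4, Slc12a2 and Glrb is the control library of mouse 1.

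The GABAA receptor subunits came first in number. Each receptor combines alpha and beta subunits with a gamma or delta subunit, and the alpha subunit shapes where it sits and how it responds. Among the 4 alpha genes, Gabra3 gave 31.7 ± 2.68% of the summed control FPKM, Gabra4 26.7 ± 1.68%, Gabra5 22.0 ± 2.80% and Gabra2 19.6 ± 2.16% (SD, n = 6). In the cocktail libraries the shares were 31.8 ± 2.91%, 25.6 ± 2.08%, 22.9 ± 3.80% and 19.7 ± 1.32% in the same order. Each share moved by less than its SD over libraries.

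Gabra3, an alpha subunit, read 22.8 FPKM at the lowest, 32.4 at the median and 37.7 at the highest in control, and 30.5, 33.3 and 34.6 FPKM in cocktail. Gabra4, an alpha subunit that often pairs with delta outside the synapse, read 19.0, 27.4 and 29.2 FPKM in control and 24.6, 26.7 and 27.4 FPKM in cocktail. Gabra2, another alpha subunit, read 15.8, 18.6 and 24.6 FPKM in control and 17.5, 20.4 and 24.7 FPKM in cocktail. All 3 overlapped fully or nearly so. Their estimates were 0.073 (95% interval -0.082 to 0.23), 0.012 (-0.13 to 0.15) and 0.085 (-0.061 to 0.23) on the log2(FPKM + 1) scale, and none passed the test (adjusted p = 0.881, 0.986 and 0.841, limma).

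Gabra5, an alpha subunit known for tonic inhibition and for its abundance in hippocampus, had the widest scatter of the alpha genes in the cocktail group. It read 18.5, 21.0 and 27.3 FPKM at the lowest, median and highest in control and 14.7, 25.0 and 30.1 FPKM in cocktail. The estimate was 0.11 (95% interval -0.12 to 0.34, adjusted p = 0.876), with the cocktail library higher in 4 mice and lower in 2. The coefficient of variation was 15.7% in control, where counting error alone would give 3.48%.

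The beta subunits carry the other face of the GABA site. Gabrb2 read 23.0, 38.7 and 39.9 FPKM in control and 34.4, 35.7 and 40.8 FPKM in cocktail, and Gabrb1 8.44, 10.2 and 11.2 FPKM and 8.63, 10.3 and 12.1 FPKM. Gabrb1 stood at 0.284 ± 0.0446 of Gabrb2 (mean ratio of FPKM ± SD, n = 6). Neither gene passed the test (estimates 0.037 and 0.030, adjusted p = 0.956 and 0.945). The low Gabrb2 value is the control library of mouse 1, and the other 5 controls read 37.8 to 39.9 FPKM.

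Gabrg1 and Gabrg3, the gamma subunits among the members, were the lowest of the GABAA genes. Gabrg1 read 2.56, 3.71 and 4.23 FPKM in control and 3.24, 3.71 and 4.24 FPKM in cocktail (estimate 0.058, 95% interval -0.14 to 0.25, adjusted p = 0.922). Gabrg3 read 1.28, 1.44, 1.46, 1.12, 1.02 and 0.858 FPKM in the controls of mice 1 to 6 and 1.93, 1.45, 1.38, 1.58, 1.73 and 1.21 FPKM in their cocktail hemispheres. The cocktail library was the higher one in 5 mice, with mouse 3 the exception and mouse 2 nearly level, and the groups overlapped. The estimate was 0.21 ± 0.075 SE (95% interval 0.049 to 0.38), its unadjusted p was 0.0153 and its adjusted p 0.377 in limma, and the exact sign-flip permutation p over 6 mice was 0.0938, two-sided. With a pseudocount of 0.1 the estimate was 0.35, and in voom 0.36, with adjusted p of 0.376 and 0.382. Gabrg3 rested on 17 to 66 reads per library. Its control scatter of 20.1% was close to the 17.5% that counting error alone gives.

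Gabrd, the delta subunit of tonic receptors outside the synapse, was as high as the alpha genes. It read 29.4, 33.6 and 38.5 FPKM in control and 29.1, 31.6 and 33.4 FPKM in cocktail. The cocktail library was the lower one in 5 of 6 mice and the higher one in mouse 5, with overlapping groups. The estimate was -0.10 (95% interval -0.22 to 0.016, adjusted p = 0.696, limma). Summed over the 9 subunits, the level was 184 ± 18.0 FPKM in control and 188 ± 6.30 FPKM in cocktail.

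Several of these genes are neighbours in the genome. In mm10, Gabrg1 (chr5:70751047-70842617), Gabra2 (chr5:70961057-71095849), Gabra4 (chr5:71569734-71658308) and Gabrb1 (chr5:71700016-72137244) lie in 1 cluster, and Gabrg3 (chr7:56724242-57386871) lies beside Gabra5 (chr7:57407669-57510009). Neighbours differed in level, from 3.56 ± 0.605 FPKM for Gabrg1 to 26.5 ± 3.81 FPKM for Gabra4 in the control libraries of the chromosome 5 cluster. Exons of Gabra4 and Gabrb1 overlap by 46 bases on opposite strands.

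The GABAB receptor needs both of its subunits, Gabbr1, which binds GABA, and Gabbr2, which couples to the G protein. Gabbr1 read 143 FPKM at the lowest, 157 at the median and 166 at the highest in control and 136, 151 and 167 FPKM in cocktail. Gabbr2 read 73.2, 86.8 and 90.9 FPKM in control and 74.5, 80.8 and 85.3 FPKM in cocktail. Gabbr1 was thus the more abundant partner in every control library, with a ratio of 1.86 ± 0.168, and neither gene passed the test (estimates -0.021 and -0.058, adjusted p = 0.956 and 0.834, limma).

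Kctd12 had the largest estimate of the members. It encodes a cytosolic auxiliary subunit that speeds the desensitisation of GABAB responses. In the controls of mice 1 to 6 it read 13.8, 14.3, 18.6, 16.2, 18.9 and 15.9 FPKM, and in their cocktail hemispheres 18.6, 14.6, 23.9, 21.3, 17.3 and 24.8 FPKM. The cocktail library was higher in 5 mice and lower in mouse 5, and the groups overlapped. The estimate was 0.28 ± 0.084 SE (95% interval 0.092 to 0.46), a fold of 1.21, and did not pass the test (unadjusted p = 0.00682, adjusted p = 0.229, limma, and exact sign-flip permutation p = 0.0938 over 6 mice, two-sided). Across the other settings its adjusted p ran from 0.0532, without mouse 5, to 0.796, with the mouse left out of the model. Kctd12 (chr14:102976581-102982637, mm10) shares 3805 exon bases with Gm26778 on the opposite strand. The kit kept strand, but the strand setting of the counting is not given in the sources used here, so the reads of these genes may not be fully separated.

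Kctd16, a second auxiliary subunit of the same family, was lower at 4.39, 5.35 and 5.74 FPKM in control and 4.43, 5.36 and 6.93 FPKM in cocktail. Kctd12 stood 3.12 ± 0.282-fold above it in control. The estimate for Kctd16 was 0.041 (95% interval -0.12 to 0.20, adjusted p = 0.934). The pair's difference in change, 0.23 on the log2 scale, did not pass an exact sign-flip test over 6 mice (p = 0.25, 0.609 adjusted over 9 pairs).

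The within-mouse differences of Kctd12 and Gabra5 were set beside those of hippocampus markers. Transcripts of these marker genes were present in the dissected tissue, and whether they came from hippocampal cells or from cortex was not tested. Fibcd1, a marker of hippocampal pyramidal cells, read 2.05 to 18.3 FPKM in control and 3.02 to 24.8 FPKM in cocktail. The 6 hippocampus markers summed to 36.8 to 54.5 and 35.6 to 70.2 FPKM, and 4 of them had a mean of at least 1 FPKM. Wfs1 alone made up most of this sum, at 31.2 to 34.9 FPKM in control and 26.5 to 39.6 FPKM in cocktail. The mean difference of the 4 of these markers that were tested (Prox1, Wfs1, Fibcd1 and Spata13) was 0.092, -0.31, 0.35, 0.21, -0.38 and 0.64 in mice 1 to 6 on the log2(FPKM + 1) scale. In the same order Kctd12 gave 0.41, 0.029, 0.35, 0.38, -0.12 and 0.62, and Gabra5 0.28, -0.35, 0.40, 0.20, -0.33 and 0.47. Both genes were lowest in mice 2 and 5, where the mean of the markers was lower in the cocktail hemisphere, and highest in mouse 6. The markers did not move as 1 group. Fibcd1 made up most of the mean in mice 2 to 6, with differences of -1.29 in mice 2 and 5 and 2.26 in mouse 6, and Wfs1 had the same sign as Fibcd1 in 5 of the mice with differences of -0.28 to 0.18. Prox1 was higher with the cocktail in mouse 2 and Spata13 in mouse 5. Over the 6 mice Kctd12 gave r = 0.895 with Fibcd1, 0.887 with Wfs1, 0.466 with Spata13 and 0.043 with Prox1, and Gabra5 gave 0.892, 0.945, 0.684 and -0.16, as descriptions without a test.

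The relation was tested in all 27 genes over the 6 mice. For Gabra5 Pearson's r was 0.953 (exact permutation p = 0.00556, 0.15 adjusted over 27 relations) and Spearman's rho 0.886 (exact permutation p = 0.0333, adjusted 0.735). For Kctd12 r was 0.950 (exact permutation p = 0.0125, adjusted 0.169) and rho 0.771 (exact permutation p = 0.103, adjusted 0.735). Without mice 5 and 6, whose marker differences lay farthest from the median, r was 0.959 and 0.869 over the other 4 mice. Neither relation passed the adjustment. With the hippocampus markers as a covariate, a model chosen after seeing the data, the estimate for Kctd12 was 0.21 ± 0.054 SE (adjusted p = 0.130, limma), and that for Gabra5 was 0.026, against 0.11 without the covariate (adjusted p = 0.980, limma). None of these estimates passed the test, with or without the covariate. The part of hippocampal tissue in the Kctd12 and Gabra5 values was not tested.

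**Figure D3:**
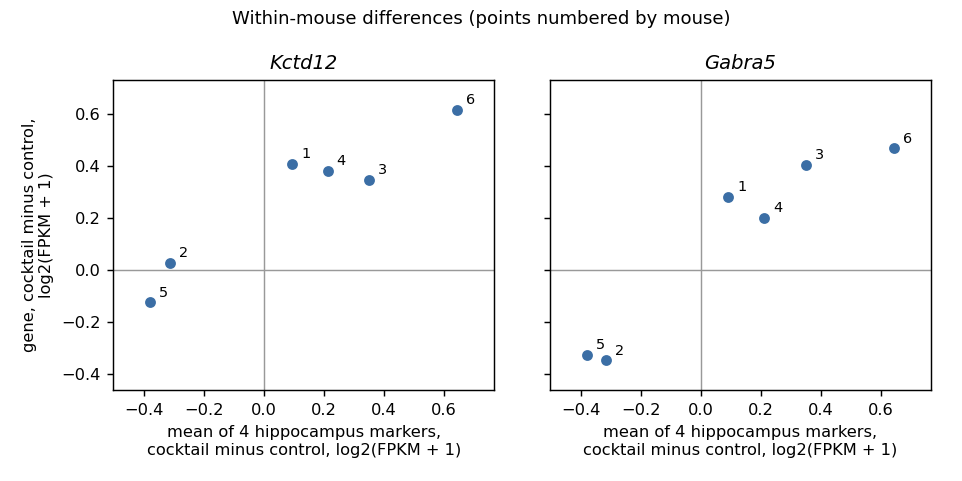
Cocktail minus control of Kctd12 (left) and Gabra5 (right) against the mean of 4 hippocampus markers, both on the log2(FPKM + 1) scale, with 1 numbered point per mouse. Mice 2 and 5 sit at the lower left and mouse 6 at the upper right in both panels.

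The glycine receptor genes showed a large gap between the beta subunit and the alpha subunits. Glrb, the beta subunit that binds gephyrin, read 56.8, 80.0 and 88.9 FPKM at the lowest, median and highest in control and 74.9, 76.3 and 80.2 FPKM in cocktail. Glra2, a glycine-binding alpha subunit, read 4.03, 4.78 and 5.55 FPKM in control and 4.58, 5.17 and 5.34 FPKM in cocktail. Glrb stood 16.3 ± 1.73-fold above Glra2 in control. Neither passed the test (estimates 0.00072 and 0.075, adjusted p = 0.999 and 0.850, limma).

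Glra3, a further alpha subunit, was at the edge of detection. It read 0.648, 0.796, 0.486, 0.770, 0.696 and 0.886 FPKM in the controls of mice 1 to 6 and 1.10, 0.597, 0.673, 0.819, 1.02 and 1.15 FPKM in cocktail, from 12 to 30 reads per library. The cocktail library was higher in 5 of 6 mice (mean difference 0.14 on the log2(FPKM + 1) scale, exact sign-flip permutation p = 0.0938, two-sided).

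Gephyrin, encoded by Gphn, forms the scaffold, and neuroligin 2, encoded by Nlgn2, is the adhesion molecule of inhibitory synapses. Gphn read 14.9, 16.9 and 17.3 FPKM in control and 14.6, 15.6 and 19.0 FPKM in cocktail. Nlgn2 read 73.1, 82.9 and 96.7 FPKM in control and 69.3, 79.6 and 85.9 FPKM in cocktail. Both estimates were below zero at -0.037 (95% interval -0.15 to 0.078) and -0.076 (-0.20 to 0.050), and neither passed the test (adjusted p = 0.919 and 0.833, limma). The highest Nlgn2 value came from the control of mouse 1, and the other controls read 73.1 to 84.5 FPKM. Without mouse 1 the Nlgn2 estimate was -0.016.

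Gabarap and Gabarapl1 are small ubiquitin-like proteins that take part in receptor trafficking and in autophagy. Gabarapl1 was the most abundant member, with 215, 264 and 280 FPKM in control and 221, 264 and 270 FPKM in cocktail. Gabarap read 77.9, 81.5 and 98.5 FPKM in control and 80.4, 84.0 and 90.2 FPKM in cocktail. Gabarap stood at 0.338 ± 0.0651 of Gabarapl1 in control, and the estimates were 0.0097 and 0.032 (adjusted p = 0.982 and 0.926, limma). Exons of Gabarapl1 overlap those of 1700101I11Rik by 570 bases on the opposite strand.

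The genes of the presynaptic side all had estimates a little above zero, and none passed the test. Gad1 and Gad2, both forms of glutamate decarboxylase, make GABA. Gad1 read 80.3, 93.4 and 95.8 FPKM in control and 93.5, 95.9 and 99.1 FPKM in cocktail (estimate 0.071, 95% interval -0.035 to 0.18, adjusted p = 0.794). Gad2 read 23.3, 28.7, 29.9, 29.3, 29.6 and 29.5 FPKM in the controls of mice 1 to 6 and 29.6, 30.6, 30.9, 29.6, 29.8 and 32.4 FPKM in cocktail. It was higher in 6 of 6 mice, by 0.010 to 0.33 on the log2(FPKM + 1) scale, and the lowest cocktail libraries still lay within the control range. The estimate was 0.10 ± 0.052 SE (95% interval -0.010 to 0.22, adjusted p = 0.683, limma). The exact sign-flip permutation p was 0.0313, the smallest that 6 mice allow.

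The ratio of Gad1 to Gad2 was among the steadiest quantities measured, at 3.23 ± 0.128 in control and 3.16 ± 0.180 in cocktail. Without the control of mouse 1 the coefficient of variation of Gad2 over the other 5 controls was 1.48%, below the 2.05% that counting error gives. Slc32a1, which loads GABA and glycine into vesicles, read 32.6, 36.6 and 37.1 FPKM in control and 34.8, 37.3 and 43.6 FPKM in cocktail (estimate 0.080, adjusted p = 0.783). Slc32a1 shares 697 exon bases with Gm14205 on the opposite strand.

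Slc6a11, a GABA transporter of astrocytes, and Abat, the transaminase that breaks GABA down, cover its removal. Slc6a11 read 27.2, 31.3 and 33.3 FPKM in control and 29.2, 29.8 and 37.5 FPKM in cocktail (estimate 0.017, adjusted p = 0.968). Abat had the smallest control spread of all members, 2.56%, with 45.3, 47.0 and 48.2 FPKM in control and 46.6, 47.7 and 48.7 FPKM in cocktail. It was higher in the cocktail library of 6 of 6 mice, by 0.0031 to 0.10 on the log2(FPKM + 1) scale (estimate 0.028, 95% interval -0.061 to 0.12, adjusted p = 0.921, limma). The estimate corresponds to 1.96%, which is less than the spread between control libraries.

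The chloride cotransporters had estimates of opposite sign. Slc12a5 encodes KCC2, the neuronal exporter that keeps intracellular chloride low. It read 117 FPKM at the lowest, 129.8 at the median and 144 at the highest in control and 111, 123 and 134 FPKM in cocktail. The cocktail library was the lower one in 5 of 6 mice and the higher one in mouse 2 (estimate -0.095, 95% interval -0.20 to 0.013, adjusted p = 0.693, limma). Slc12a2 encodes NKCC1, the importer found in neurons and glia. It read 10.5, 15.8 and 16.8 FPKM in control and 15.6, 16.7 and 18.0 FPKM in cocktail (estimate 0.15, 95% interval -0.026 to 0.33, adjusted p = 0.710). Without mouse 1 the Slc12a2 estimate was 0.053.

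The ratio of Slc12a5 to Slc12a2 was 8.86 ± 1.78 in control and 7.34 ± 0.815 in cocktail. In the controls of mice 1 to 6 it was 12.1, 7.16, 7.95, 8.84, 7.66 and 9.47, and in their cocktail hemispheres 6.71, 7.91, 8.19, 7.10, 6.16 and 7.98. It was lower with the cocktail in 4 mice and higher in 2. The mean change was -0.24 on the log2 scale (95% interval -0.59 to 0.10) and did not pass an exact sign-flip test over 6 mice (p = 0.125, 0.609 adjusted over 9 pairs). Mouse 1 alone changed by -0.80, and without it the mean change was -0.13.

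The balance between partner genes was compared within libraries. All 9 partner pairs tested in the control libraries kept their order in 6 of 6 libraries (exact sign-flip permutation p = 0.0313 for each, the smallest that 6 mice allow, and 0.0313 after adjustment over the 9 pairs, two-sided). Besides the pairs above these were Gabrg1 over Gabrg3, with a ratio of 3.06 ± 0.703, and Gabra4 below Gabrd, with a ratio of 0.790 ± 0.161. Any genes with unlike levels that keep their order in every control library give this same p. No share over other gene pairs was taken for comparison, and the pairs were chosen with earlier results of these data known. The control p-values therefore say only that the partners differed in level, and nothing particular to these pairs. For the change with the cocktail, 0 of the 9 pairs had an unadjusted p under 0.05 in the same test, and the smallest was that of Slc12a5 and Slc12a2. After adjustment no pair could have passed unless at least 6 of the 9 reached the smallest p, so the adjusted values say nothing about whether the balance was stable.

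The control library of mouse 1 mattered for many members. In 15 of the 26 genes tested it was the lowest control and in 3 the highest, beside 50.1% and 11.98% of all loci. Gabrb2 was at 0.589 of the mean of the other 5 controls, Slc12a2 at 0.656, Gabra4 at 0.678, Gabrg1 at 0.680, Gabra3 at 0.684 and Glrb at 0.691, whereas Gabarap was at 1.22 and Nlgn2 at 1.21. Across the 26 genes the deviation followed the GC content of the transcript with r = 0.660, and r = 0.553 across 11991 loci. These are correlations across genes of 1 library, and genes are not independent replicates. The cocktail library of the same mouse gave r = -0.406. The median coefficient of variation of the members in control was 9.83% with this library and 6.31% without it, and without mouse 1 there were still 0 members called. Leaving that mouse out also lowered the estimates of Gad1 to 0.031, Gad2 to 0.057, Glra2 to 0.028, Gabra2 to 0.047 and Kctd16 to 0.015, among others. It raised those of Slc32a1 from 0.080 to 0.11, Slc6a11 from 0.017 to 0.048 and Gabarap from 0.0097 to 0.037. The part of base composition in these values was not tested.

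**Figure D4:**
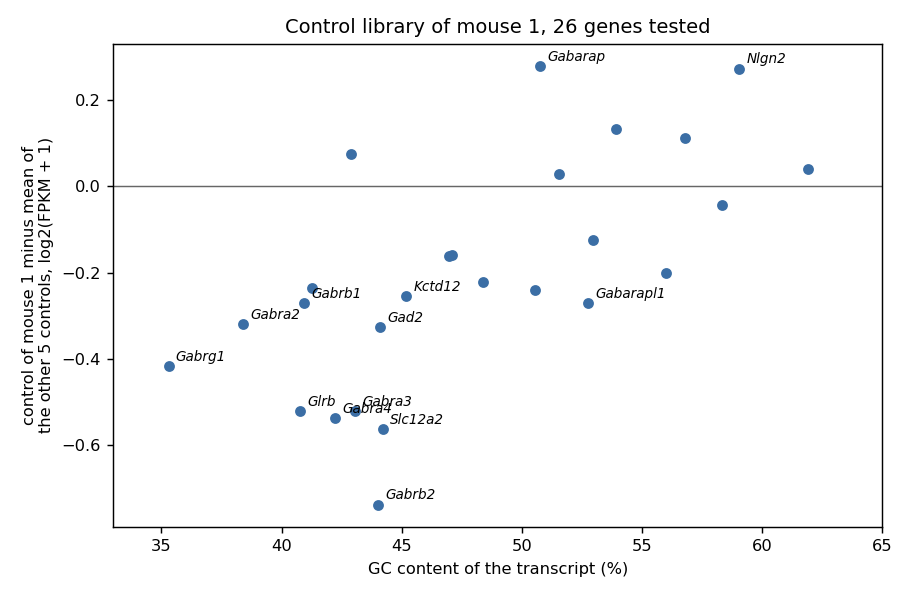
Deviation of the control library of mouse 1 from the mean of the other 5 controls, on the log2(FPKM + 1) scale, against the GC content of the transcript in percent for the 26 genes tested. Genes with a transcript GC content near 40% to 45% reach the lowest deviations, with Gabrb2 at -0.74, and Gabarap (0.28) and Nlgn2 (0.27) are the highest.

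The rest of the pathway gave no calls either. Of 33 other GABA and glycine genes (further receptor subunits, transporters and synaptic proteins), 25 were tested and 0 were called in limma, with 0 at an unadjusted p under 0.05. Their estimates ran from -0.091 to 0.076, 12 above zero and 13 below, with a median of -0.0063. The 8 that were not tested had mean levels under 1 FPKM. Of 10 genes of chloride balance, the relatives and regulators of both cotransporters, 9 were tested and 0 were called, with 0 at an unadjusted p under 0.05 and estimates of -0.071 to 0.12. Voom called 0 in both lists as well. The 13 inhibitory neuron markers tested had a median estimate of 0.069 and 0 calls. The marker lists of excitatory neurons, astrocytes, oligodendrocytes and their precursors, microglia, endothelial cells, striatum, thalamus, hippocampus and choroid plexus also held 0 calls, with median estimates from -0.054 for excitatory neurons to 0.13 for hippocampus.

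Promoter sequence was read for the members to see whether they carry the short motifs bound by activity-regulated factors. A RefSeq window of 250 bases before to 50 after the start (GRCm38.p6) was at hand for 23 of the 27 members, in 28 windows. Gabrd, Abat, Slc12a2 and Kctd16 had none. On both strands, the cAMP response element TGACGTCA was found in 0 of the 28 windows, where 1.79% of all 32851 windows hold it. The AP-1 motif (TGACTCA or TGAGTCA), bound by Fos and Jun, was found in 1 of the 28, in Slc12a5, beside 5.20% of all windows. The EGR motif (GCGTGGGCG or GCGGGGGCG) was found in 2 of the 28, in Gad1 and Glra3, beside 3.47% of all windows. The CArG box of serum response factor was found in 1 of the 28, in Glra3, beside 1.63% of all windows. None of these motifs overlapped another in a member. The upstream parts of the windows of Slc12a5 and Glra3 are shown because they hold whole matches, in capitals. That of Slc12a5 (chr2:164960596-164960845, plus strand) holds TGACTCA 162 bases before a start that lies ahead of the Slc12a5 locus in the expression files. That of Glra3 (chr8:55940168-55940417, plus strand) holds the CArG box 122 and the EGR motif, on the minus strand, 16 bases before the start.
Slc12a5: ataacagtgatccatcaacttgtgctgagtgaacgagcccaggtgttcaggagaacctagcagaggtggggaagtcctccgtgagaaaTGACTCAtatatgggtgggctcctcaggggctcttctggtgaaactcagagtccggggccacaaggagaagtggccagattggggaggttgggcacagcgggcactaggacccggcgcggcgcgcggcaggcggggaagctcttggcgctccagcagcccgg
Glra3: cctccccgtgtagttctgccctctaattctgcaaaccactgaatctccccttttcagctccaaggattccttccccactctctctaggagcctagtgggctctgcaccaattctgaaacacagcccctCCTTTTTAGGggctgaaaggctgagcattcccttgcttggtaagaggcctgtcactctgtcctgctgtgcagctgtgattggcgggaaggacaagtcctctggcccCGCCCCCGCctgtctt
Slc12a5 did not pass the test for a change with the cocktail, Glra3 was too low to be tested, and a match is a run of letters and not a measured binding site.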

How the data were processed

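Poly-A RNA of dissected auditory cortex was sequenced as strand-specific single reads of 50 bases. The authors removed ribosomal reads (BWA 0.6.1), aligned to mm10 with TopHat 1.4.1 and computed FPKM per locus with Cufflinks 1.3.0 (bias correction, fragments of protein-coding genes in the denominator). The deposited FPKM values of 12 libraries were used as they stand. A table of the authors' own DESeq2 1.6.3 comparison on HTSeq 0.6.1p1 counts (fold changes and p-values) was not used here.

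The test was limma 3.58.1 (R 4.3.3) on log2(FPKM + 1), with mouse as a block, a variance trend, loci with a mean of at least 1 FPKM and Benjamini-Hochberg adjustment at 0.05 over 12032 loci. Fold changes are on the log2(FPKM + 1) scale, which understates those of low genes. Read numbers were recovered from the FPKM confidence intervals, which gave whole numbers within 0.05 for 82.8% of 36412 values under 20 reads. Counting errors cover counting only. Control and cocktail libraries of 1 number come from the same mouse, per the labels and methods, and deviated together (r = 0.216 to 0.406 in 6 pairs, median 0.337, beside -0.42 to 0.445 in 30 pairs of different mice, median -0.071). Partner genes were compared with exact sign-flip permutation tests over 6 mice. Scripts were tested on simulated data. edgeR and DESeq2 were not run, as the files used give no counts per library. Gene lists were chosen by known function: the 27 members, 33 other GABA and glycine genes, 10 chloride balance genes, and markers of cell types and regions. The text names all members, Fos and Arc, and other genes where a member's result turned on them. Members, lists and tests were chosen with earlier results of these data known.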

Additional observations from a re-analysis of the deposited data

Results flagged for a closer look

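In 81 groups of 6 values (27 genes, each in control, in cocktail and as the within-mouse difference), 19 held 1 value set apart by Dixon's criterion, a gap to the next value that is too large a share of the range for 6 values, and chance flags about 1 in 20 groups, or 4.05 here. The groups are not independent, since 6 of the 19 are the control library of mouse 1 and 7 are the within-mouse differences of mouse 1.

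In control, mouse 1 was low for Gabrb2 (22.95 FPKM against 37.8 to 39.9, gap 0.876), Gad2 (23.3 against 28.7 to 29.9, gap 0.823), Gabra4 (19.0 against 26.8 to 29.2, gap 0.768), Slc12a2 (10.5 against 15.0 to 16.8, gap 0.720) and Gad1 (80.3 against 91.0 to 95.8, gap 0.690), and high for Gabarap (98.5 against 77.9 to 85.3, gap 0.640). Mouse 2 was low for Slc32a1 (32.6 against 35.5 to 37.1 FPKM, gap 0.641).

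The cocktail minus control difference of mouse 1 was high for Gabrb2 (0.62, gap 0.728), Gabra4 (0.36, gap 0.702), Glrb (0.41, gap 0.677), Slc12a2 (0.63, gap 0.674), Gabrg1 (0.56, gap 0.634) and Gad2 (0.33, gap 0.627), and low for Nlgn2 (-0.38, gap 0.645). Mouse 5 was high for Gabrd (0.16 against -0.20 to -0.094, gap 0.705), and mouse 2 for Gabarapl1 (0.28, gap 0.682).

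In cocktail, mouse 1 was low for Gabarapl1 (221 against 259 to 270 FPKM, gap 0.789) and Gabra4 (24.6 against 26.4 to 27.4, gap 0.643), and mouse 3 was high for Slc6a11 (37.5 against 29.2 to 32.1, gap 0.651). The cause of these values was not tested.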

How the results depend on the processing

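The members called stayed at 0 in the main model and all 16 other settings, as did the other GABA and glycine genes and the chloride balance genes. Of 413 values of single members under these settings, 394 kept their direction and 19, in 11 genes, reversed, none of them called and the largest 0.080 in size. Many of the 394 were fixed in advance. The estimate cannot change without the replicate block, the filter or the variance trend. The same holds for a minimum mean of 5 FPKM and for loci with status OK in all 12 libraries. Over all loci the number called was 180, and 88 without the replicate block (the mouse left out of the model), which changed no call of a member. Leaving out 1 mouse at a time gave 104 to 183, lowest without mouse 4. Adjusted p of Kctd12 ran from 0.0532 to 0.796. The estimates that reversed when 1 mouse was left out ranged from -0.00097 to 0.11 (Gabra3), -0.058 to 0.041 (Gabra4), -0.0092 to 0.065 (Gabrb1), -0.080 to 0.080 (Gabrb2), -0.042 to 0.11 (Gabrg1), -0.048 to 0.013 (Gabbr1), -0.024 to 0.048 (Slc6a11), -0.080 to 0.038 (Glrb), -0.0060 to 0.10 (Kctd16), -0.016 to 0.037 (Gabarap) and -0.017 to 0.052 (Gabarapl1). Quantile normalization reversed Gabra4 (-0.0010), Glrb (-0.023), Gabarap (-0.0046) and Gabarapl1 (-0.048), and median-of-ratios scaling Glrb (-0.0078). The cause was not tested. Changes of the pair Gabarap and Gabarapl1 ran from -0.068 to 0.020, and of Gabrb1 and Gabrb2 from -0.052 to 0.078. Without 1 mouse the sign-flip test of 5 mice cannot reach 0.05, so the pairs have values only. Glra3 and Gabrg3 rest on few reads, and the counts that edgeR or DESeq2 would need were not used here.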
